A study of Mus musculus with 4 samples.

Results

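The array of chondrocytes labelled cKO and cultured without TNF was compared with the array of Rela fl/fl chondrocytes cultured without TNF, which are 2 of the 4 arrays of the series. Both genotypes were C57BL/6J mice that carry floxed Rela alleles, and the cKO animals also carry Prrx1-Cre, a transgene whose Prrx1 promoter drives the recombinase in limb mesenchyme. Primary chondrocytes were taken from mice at 6 days of age. Treatment lasted 3 days, and while the 2 arrays compared here read cells without TNF, 2 further arrays, 1 per genotype, read cells given TNF at 10 ng/ml. Each condition has 1 array, how many mice were pooled is not given in the sources used here, and no value has a replicate, so no test between conditions was run and the number of arrays limits the precision. The comparison asks how chondrocytes of the 2 genotypes differ in the genes of matrix, growth and differentiation in culture without TNF. Its members were 12993 autosomal genes with a symbol whose probe was well above background on both arrays, of 19806 such genes on the array.

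Chondrocytes are the cells of cartilage. They surround themselves with fibrils of type II, IX and XI collagen and with aggrecan, a large proteoglycan held in place by hyaluronan and link protein, under the control of the transcription factors Sox9, Sox5 and Sox6. In the growth plate they divide, enlarge into hypertrophic cells that make type X collagen, and give way to bone, and hedgehog, Wnt, BMP, FGF and IGF signals set the pace of these steps. Rela (p65) is a subunit of NF-κB, which on stimulation enters the nucleus and switches on genes of inflammation, matrix breakdown and cell survival.

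Signals are scaled so that 1 is the 75th percentile of the array, and a difference is the log2 signal on the array labelled cKO minus that on the Rela fl/fl array. The technical spread of such a difference, from probes that are each printed 10 times on an array and were well above background there with no outlier flag (173 on the Rela fl/fl array and 195 on the array labelled cKO), had an SD of 0.09 for signals of 1 or more and 0.21 for signals under 1. This spread leaves out the spread between cultures. On some parts of an array neighbouring dim spots were bright together, and a spot was said to lie in a patch when 3 or more other spots in a window of 11 rows and 5 columns were brighter there than on any of the 3 other arrays, by 2-fold or more. Patches held 10.7% of the spots of the Rela fl/fl array and 9.42% of those of the array labelled cKO. Of the 12993 genes, 10235 had no spot in a patch of either array.

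Rela itself had signals of 28.4 on the Rela fl/fl array and 34.0 on the array labelled cKO, a difference of 0.26. With TNF its signals were 34.9 and 40.2. The signal of Rela was thus not lower on the arrays labelled cKO, and where its probe lies relative to the deleted exons is not given in the sources used here. Xist, the RNA that coats the inactive X chromosome, had a signal of 0.719 on the Rela fl/fl array and was not well above background on the array labelled cKO, a difference of -4.33 when the latter is set to the dimmest signal that is well above background. The Y-linked genes Ddx3y and Eif2s3y were higher on the array labelled cKO by 1.49 and 1.81. The same held with TNF, so genotype label and sex-linked signal differ between the same arrays and cannot be told apart in any difference below.

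Among the 12993 genes, 126 (0.97%) were higher and 213 (1.64%) were lower by 2-fold or more on the array labelled cKO. At 1.5-fold or more, 355 (2.73%) were higher and 511 (3.93%) were lower. By any amount, 48.9% were higher and 51.1% were lower, and the median difference was -0.01. Of the genes past 2-fold, 84 of the 126 higher and 151 of the 213 lower genes had a spot in a patch, against 21.2% of all 12993. Outside patches, 42 of 10235 genes (0.41%) were higher and 62 (0.606%) lower by 2-fold or more, and 213 (2.08%) were higher and 258 (2.52%) lower by 1.5-fold or more. Members with a spot in a patch are counted below and are marked as such where they are named.

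**Figure D1:**
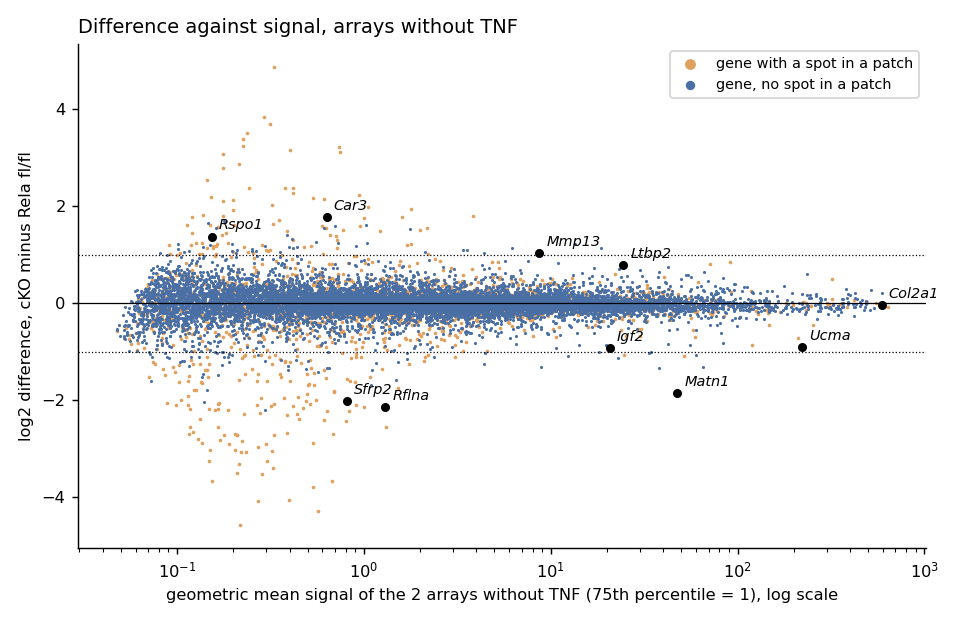
Log2 difference of each gene (array labelled cKO minus Rela fl/fl array, without TNF) against the geometric mean of its signals on the same 2 arrays, on a log scale where 1 is the 75th percentile. Orange points are genes with a spot in a patch, blue points the 10235 genes without, black points named genes, and dotted lines the 2-fold limits. Most points past the limits at signals near or under 1 are orange, whereas Matn1 is past them at a bright signal. Igf2, also bright, lies just inside them.

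Genes of the cartilage matrix were lower on the array labelled cKO as a group. All 7 cartilage collagens and 17 of 20 measured cartilage proteoglycans and matrix proteins were lower, against 51.1% of all genes, and none of either list was higher by 1.5-fold. The median difference was -0.84 for the collagens and -0.63 for the proteoglycans and matrix proteins. Whether this reflects fewer chondrocytes among the cells or less of these RNAs in each chondrocyte cannot be told apart in bulk RNA.

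Matn1 (matrilin-1), which links collagen fibrils to proteoglycans, showed the largest difference of these lists outside patches. Its signal was 90.4 on the Rela fl/fl array and 24.98 on the array labelled cKO, 3.62-fold lower. Snorc, a small transmembrane proteoglycan of chondrocytes, went from 60.4 to 24.0, 2.52-fold lower. Both genes are bright, in the range where the technical spread was smallest, and their differences of -1.86 and -1.33 lie far outside it. Mia (cartilage-derived retinoic acid-sensitive protein), a protein secreted by chondrocytes, had signals of 103 and 41.2, a difference of -1.32. Matn4 (matrilin-4) had signals of 6.78 and 2.86, a difference of -1.24, and its other probe, with a spot in a patch, gave -1.31. These 4 were the proteoglycans and matrix proteins outside patches past 2-fold, against 0.606% of all genes outside patches that were lower by as much.

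Other matrix proteins were lower by smaller amounts. Ucma, a calcium-binding matrix protein of the growth plate, had signals of 303 and 162 (-0.90), and Cnmd (chondromodulin), an inhibitor of vessel growth in cartilage, 111 and 63.0 (-0.82). Acan, the aggrecan core protein, had signals of 100 and 66.0, a difference of -0.61. The gene for link protein, Hapln1, differed less, with 25.8 and 20.8 (-0.31), as did Comp, a protein that joins collagen fibrils, with 461 and 384 (-0.26). In all, 12 of the 20 were lower by 1.5-fold or more, against 3.93% of all genes, and 9 of the 15 outside patches, against 2.52% there. Vit and Clec3a, both past 2-fold, and Hapln3 had a spot in a patch.

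The collagens of the cartilage fibril did not differ by the same amount. Col2a1, the main fibrillar collagen of cartilage, had signals of 597 and 584, a difference of -0.03 that is within the technical spread and changes sign with the scaling, at 0.02 with no percentile subtracted. The chains of type IX collagen, which decorates type II fibrils, were all lower. Col9a2 had signals of 86.3 and 41.1 (-1.07) and Col9a3 14.7 and 7.78 (-0.92). Col9a1 had 162 and 88.6 (-0.87), with a spot in a patch, and its other probe, with no spot in a patch, gave -1.24. Of the type XI chains, which sit inside the fibril, Col11a2 was lower by more, with 56.8 and 31.8 (-0.84), than Col11a1, with 108 and 86.8 (-0.31). Subtracting from each spot the median difference of its neighbourhood moved the median of the 7 collagens to -0.41. Col9a1 then changed sign, to 0.83, as did Col2a1, to 0.03, whereas Col9a2, Col9a3 and Col11a2 stayed at -0.98, -0.86 and -0.77.

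All 13 genes of the chondrocyte marker list, which shares members with these 2 lists, were well above background on both arrays and lower on the array labelled cKO, against 51.1% of all genes, with a median difference of -0.82. The labelled cell type therefore carries its markers on both arrays. Their summed signal was 1786 on the Rela fl/fl array and 1353 on the array labelled cKO, and with TNF 1680 and 1391. The marker signals on the 4 arrays show that the order of the genotypes was the same in both pairs for the genes with the largest differences.

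**Figure D2:**
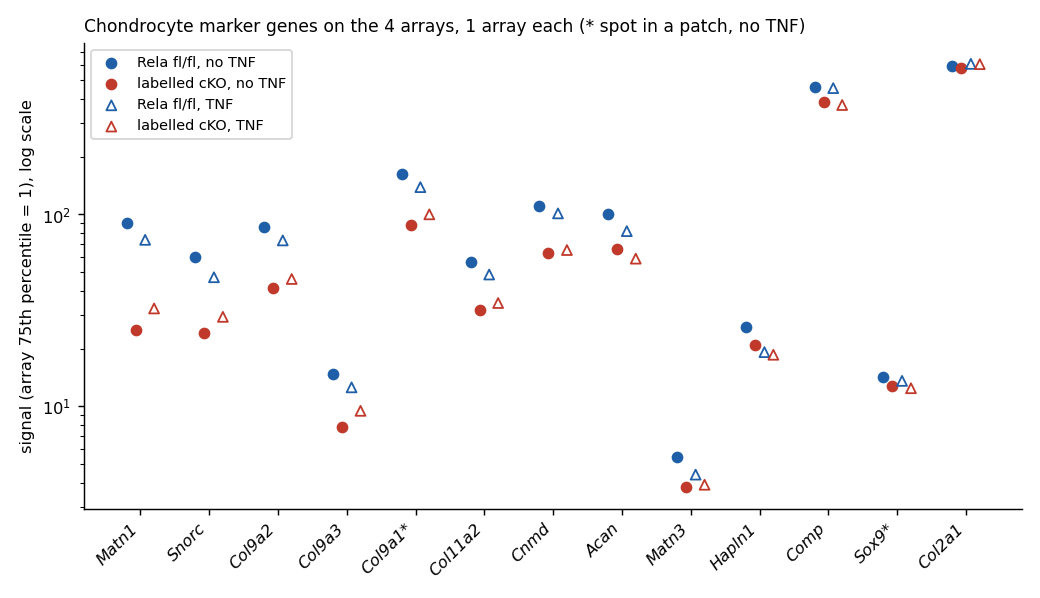
Signals of 13 chondrocyte marker genes (log scale, 75th percentile = 1) on the 4 arrays, ordered by the difference without TNF. Each point is 1 array: circles without TNF, triangles with TNF, blue Rela fl/fl, red labelled cKO, and an asterisk marks a gene with a spot in a patch of an array without TNF. Red lies below blue for Matn1 in both pairs, and Col2a1 is nearly level at 597 and 584 without TNF.

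Small leucine-rich proteoglycans, which bind collagen fibrils and growth factors, were lower in 9 of 10 measured members, against 51.1% of all genes, with a median of -0.33. Lum (lumican) had signals of 90.5 and 66.4 (-0.45) and Fmod (fibromodulin) 93.0 and 89.1 (-0.06). Ecm2, at signals of 0.144 and 0.0943, was the single member past 1.5-fold (-0.61), and its difference was -0.37 with normexp background correction, a model of the local background that shrinks the differences of dim genes. With the neighbourhood median subtracted, the median of this list was -0.04.

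The matrix genes that many connective tissue cells share had a median nearer 0 than those of cartilage. In the list of fibrous and pericellular matrix, 28 of 45 measured genes were lower, against 51.1% of all genes, and the median was -0.07. Col1a1, the main collagen of bone and fibrous tissue, had signals of 162 and 168 (0.05), and Fn1 (fibronectin) 483 and 497 (0.04). Outside patches, Mfap4 and Thbs4 were lower by 1.5-fold or more, with differences of -0.88 and -0.76. Ltbp2 and Ltbp1, which bind latent TGF-β or its fibrillin scaffold, were higher, with signals of 18.5 and 32.1 for Ltbp2 (0.79) and 5.57 and 8.65 for Ltbp1 (0.63). The enzymes of glycosaminoglycan synthesis had a median of 0.02, with 14 of 32 lower, against the same 51.1%. Extl1, an enzyme of heparan sulfate synthesis, was the single gene of that list past 1.5-fold outside patches, at 3.11 and 1.92 (-0.70).

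**Figure D3:**
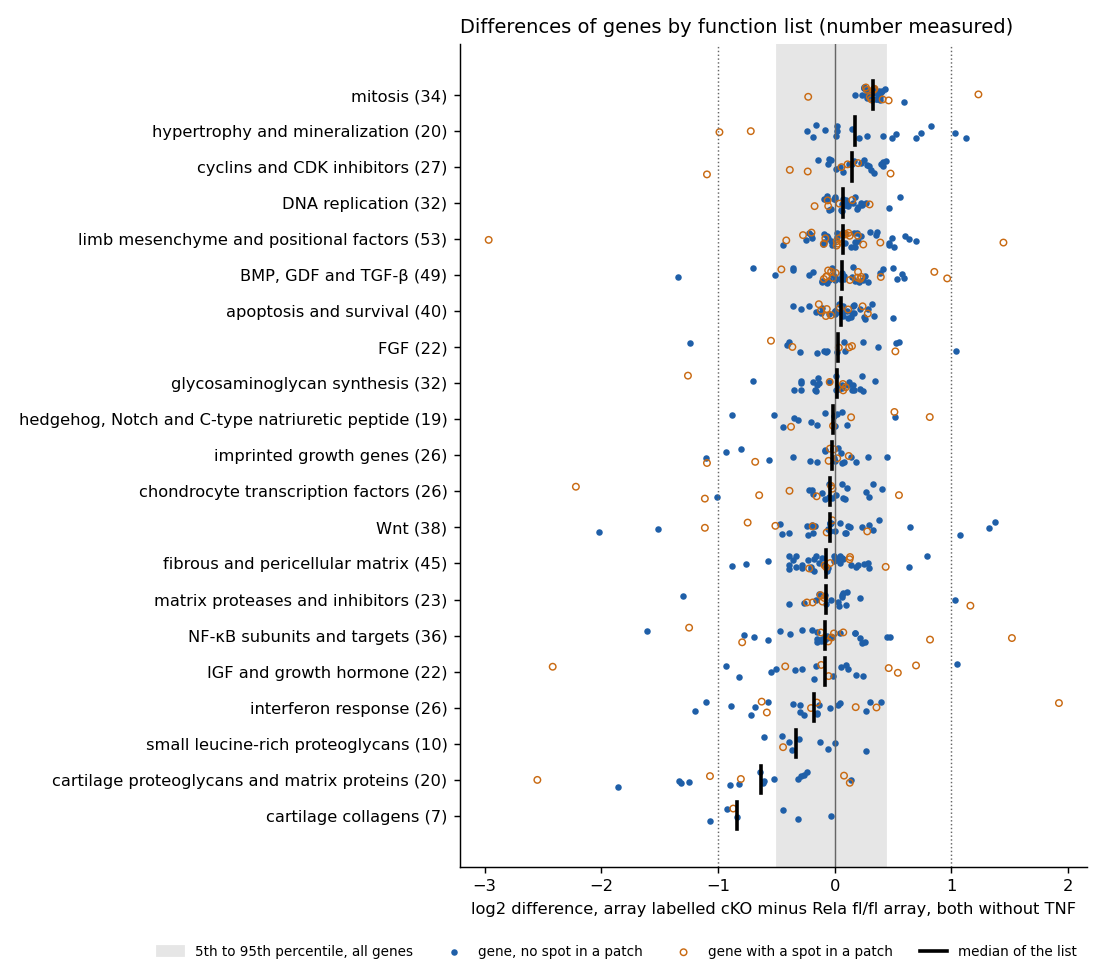
Log2 difference (array labelled cKO minus Rela fl/fl array, without TNF) of each measured gene in 21 function lists, ordered by the list's median (black bar), with the number of measured genes in parentheses. Blue points have no spot in a patch, orange circles have one, the grey band spans the 5th to the 95th percentile of all 12993 genes (-0.50 to 0.44), and dotted lines mark 2-fold. The cartilage lists lie furthest to the left and mitosis, at 0.33, furthest to the right.

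Matrix proteases had a median of -0.08, and 2 of 23 were higher and 1 was lower by 2-fold or more, against 0.97% and 1.64% of all genes. Mmp3 (stromelysin-1) was lower, with signals of 0.616 and 0.249 (-1.30). Mmp13 (collagenase-3), made by hypertrophic chondrocytes and osteoblasts, was higher, with signals of 6.08 and 12.5 (1.04), 2.05-fold. Mmp19 had a spot in a patch. Adamts5, the aggrecanase of mouse cartilage, had signals of 0.446 and 0.519 (0.22), close to the technical spread for signals under 1, and its other probe gave 0.37. With normexp neither Mmp3 nor Mmp13 stayed past 2-fold, at -0.96 and 0.998. The tissue inhibitors Timp2 and Timp3 were near level, at 0.06 and -0.09. With TNF, Mmp3 differed by -3.38, at signals of 15.3 and 1.47, and Mmp13 by -0.17, at 12.9 and 11.5.

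Genes of hypertrophy and mineralization were higher more often than lower, in 14 of 20 measured genes, against 48.9% of all genes, with a median of 0.18. Of the 18 outside patches, 5 were higher by 1.5-fold or more and none was lower, against 2.08% and 2.52% of all genes outside patches. Ibsp (bone sialoprotein), a matrix protein of mineralizing tissue, had signals of 4.19 and 9.16, a difference of 1.13, and its other probe gave 1.098. Col10a1, the collagen of hypertrophic chondrocytes, had 8.24 and 14.6 (0.83), and 0.69 with the neighbourhood median subtracted. Tnfrsf11b (osteoprotegerin), the decoy receptor that restrains osteoclasts, had 32.7 and 54.7 (0.74), and Sp7 (osterix), the osteoblast transcription factor, 0.0785 and 0.127 (0.70, and 0.31 with normexp). Mmp13 is the remaining member past 1.5-fold.

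The same list held genes that differed little or the other way. Ihh, the hedgehog ligand of prehypertrophic cells, had signals of 0.202 and 0.290 (0.52) and Alpl (alkaline phosphatase) 0.694 and 0.927 (0.42). Spp1 (osteopontin) differed by 0.28 and Vegfa by 0.01. Mgp (matrix Gla protein), an inhibitor of mineralization, and Smpd3, a sphingomyelinase needed for mineralization, were lower by 1.5-fold or more and had a spot in a patch. The osteoblast marker list shares Ibsp with this list. All 5 measured of its 8 matched genes were higher, against 48.9% of all genes, with a median of 0.42. Their differences ran from 0.02, within the technical spread, to 1.13. Dmp1 and Ifitm5 were not well above background on either array. The part of osteoblasts in these differences was not tested.

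The median over 26 measured transcription factors of chondrocytes was -0.04. Lower by 2-fold or more were 3 of them, against 1.64% of all genes, and 2 of these 3, Foxa2 at -2.22 and Sox6, had a spot in a patch. The other probe of Foxa2 gave -1.20. Sox9 had signals of 14.2 and 12.7 (-0.15), with a spot in a patch, and Sox5 15.9 and 19.5 (0.30), with 0.36 from its other probe. Sox6 differed by -1.11. Sox8, a relative of Sox9, was the only factor of the list outside patches past 2-fold, at signals of 0.100 and 0.0500, 2.01-fold lower and close to the lowest signals well above background, 0.0527 and 0.0358. With normexp its difference was -0.31. Runx2, a driver of hypertrophy and of osteoblasts, was well above background only on the array labelled cKO, where its signal of 0.0993 was at least 1.52-fold higher.

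Among 53 measured genes of limb mesenchyme and positional identity, the median was 0.07. Of the 35 outside patches, 3 were higher by 1.5-fold or more, against 2.08% of all genes outside patches, and none was lower. Irx3, a homeobox factor of the limb bud, had signals of 0.997 and 1.62 (0.70), Hoxc13 0.218 and 0.338 (0.64), and Lhx9 0.203 and 0.308 (0.60), with 0.18 from the other probe of Lhx9. With normexp, Hoxc13 and Lhx9 fell short of 1.5-fold, at 0.37 and 0.38, and Irx3 was at 0.68. Irx3 and Hoxc13 were also higher with TNF, by 1.26 and 1.27. Hoxa13 and Irx5, both past 2-fold, had a spot in a patch.

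Growth signals showed large differences in single genes and near-zero medians over the pathways. The medians were -0.04 for Wnt, 0.06 for BMP, GDF and TGF-β, 0.03 for FGF, -0.08 for IGF and growth hormone and -0.01 for hedgehog, Notch and C-type natriuretic peptide.

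In the Wnt list, 31 measured genes lay outside patches. By 2-fold or more, 2 of these were lower, both inhibitors, against 0.606% of all genes outside patches, and 3 were higher, all ligands or enhancers, against 0.41%. Sfrp2, a secreted Frizzled-related protein that binds Wnt ligands, had signals of 1.63 and 0.402 (-2.02), 4.06-fold lower. Sfrp5 of the same family had 0.230 and 0.0804 (-1.52). Sfrp1 and Sfrp4 differed by -0.39 and 0.11, so the family did not move as 1 group. Rspo1 (R-spondin 1), which enhances Wnt signalling at the membrane, had 0.0950 and 0.246 (1.37), and the ligands Wnt11 and Wnt10b had 0.261 and 0.655 (1.33) and 0.182 and 0.385 (1.08). Rspo2 and Rspo3 were lower, at -0.47 and -0.51, the latter with a spot in a patch. Rnf43, which removes Frizzled receptors, had 0.0699 and 0.109 (0.64, and 0.18 with normexp). Frzb, another Wnt inhibitor, differed by -1.11 and had a spot in a patch. Of the genes named here outside patches, all but Sfrp2 had signals under 1 on both arrays, where the technical spread is wider. With normexp only Sfrp2 of the 5 stayed past 2-fold, at -1.78, and the values were -0.88 for Sfrp5, 0.71 for Rspo1, 0.90 for Wnt11 and 0.70 for Wnt10b.

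In the BMP and TGF-β list, 2 of 33 genes outside patches were lower by 1.5-fold or more, against 2.52% of all genes outside patches. Chrdl2 (chordin-like 2), a secreted BMP antagonist, had signals of 1.03 and 0.406 (-1.34) and Gdf10, a ligand of the family, 5.48 and 3.37 (-0.70). Bmp2 and Bmp7 differed by -0.36 and 0.26, and the inhibitory Smad7, a target of the pathway, by 0.58.

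In the FGF list, Fgf21, a stress-induced endocrine factor, had signals of 1.78 and 0.753 (-1.24), and Fgf10, a ligand made by limb mesenchyme, 0.145 and 0.297 (1.04, and 0.58 with normexp). Fgfr3, the receptor that restrains growth of cartilage, had 44.6 and 34.0 (-0.39), with -0.34 from its other probe, and Fgfr1 differed by -0.15. No receptor of the list passed 1.5-fold.

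In the IGF list, Igf2, the growth factor of fetal and neonatal tissues, had a signal of 28.6 on the Rela fl/fl array and was 1.91-fold lower on the array labelled cKO (-0.93). Binding proteins differed in both directions. Igfbp4 had 5.23 and 2.95 (-0.82) and Igfbp5 72.5 and 49.8 (-0.54), whereas Igfbp3 had 0.248 and 0.514 (1.05). Igfbp2, at -2.42, had a spot in a patch, and its other probe gave -2.19. The receptors Igf1r and Igf2r differed by 0.18 and -0.05. Ostn (osteocrin), which binds the clearance receptor of C-type natriuretic peptide, had 2.56 and 1.39 (-0.88).

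**Figure D4:**
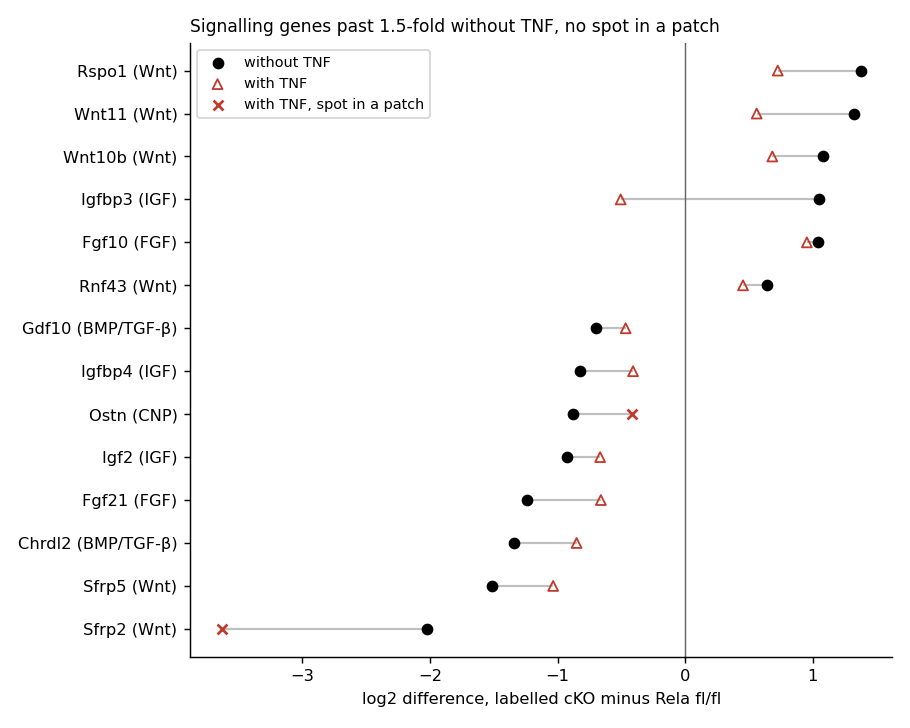
Log2 difference (array labelled cKO minus Rela fl/fl array) of 14 genes of the growth signal lists that were past 1.5-fold without TNF and had no spot in a patch there. Black circles are the arrays without TNF, red triangles those with TNF, and a red cross a gene with a spot in a patch of an array with TNF. Sfrp5, Chrdl2 and Igf2 lie left of 0 in both pairs, Rspo1 and Fgf10 right of 0 in both, and Igfbp3 on opposite sides.

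Igf2 is also expressed from the paternal allele alone, and other imprinted growth genes were measured. Of 26 measured, 19 had no spot in a patch, and 3 of these were lower by 1.5-fold or more, against 2.52% of all genes outside patches, while none was higher. Besides Igf2 these were Slc38a4, an amino acid transporter, at 0.130 and 0.0605 (-1.10, and -0.55 with normexp), and Ddc, at 0.358 and 0.205 (-0.81). Cdkn1c (p57), a cell cycle inhibitor of maturing chondrocytes, had signals of 75.8 and 35.5 (-1.09) with a spot in a patch. Its difference was -0.78 with the neighbourhood median subtracted and -0.69 with TNF, where none of its spots lay in a patch. Peg3 differed by -0.57 and Dlk1 by -0.36, while Meg3, Mest and Plagl1 differed by 0.06, -0.01 and 0.02. The list as a whole had a median of -0.02.

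Genes of cell division were higher in small and even steps. In the mitosis list 33 of 34 measured genes were higher, against 48.9% of all genes, with a median of 0.33. Plk1, a mitotic kinase, had signals of 8.97 and 11.8 (0.39), Cdc20, an activator of the anaphase-promoting complex, 11.5 and 15.5 (0.43), and Mki67 9.75 and 11.8 (0.28). Melk, a kinase of dividing cells, had 0.892 and 1.35 (0.60) and was the single member outside patches past 1.5-fold, with 0.42 under normexp. Nuf2, the 1 gene that was lower, and Aurkb, past 2-fold, had a spot in a patch.

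Genes of DNA replication moved less without TNF. Their median was 0.08, and 23 of 32 were higher, against 48.9% of all genes. The MCM helicase subunits Mcm2, Mcm4 and Mcm6 differed by -0.01, 0.00 and 0.00, while Rrm2, the regulated subunit of ribonucleotide reductase, had 13.8 and 20.3 (0.56). Ccnd1 (cyclin D1) had 35.7 and 47.6 (0.42), and the median of cyclins and CDK inhibitors was 0.15. In the list of apoptosis and survival, no gene outside or inside patches passed 1.5-fold among 40 measured, against 2.73% higher and 3.93% lower of all genes, and the median was 0.06. A count of 0 in 40 is near those shares.

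In the list of NF-κB subunits and targets, the median without TNF was -0.08, and 3 of 27 genes outside patches were lower by 1.5-fold or more, against 2.52% of all genes outside patches. All are dim. The chemokine Ccl5 had signals of 0.127 and 0.0417 (-1.61), the chemokine Cxcl1 0.221 and 0.129 (-0.78), and the adhesion molecule Icam1 0.434 and 0.268 (-0.69). With normexp only 1 of the 3 stayed past 1.5-fold, at -0.63 for Ccl5, -0.52 for Cxcl1 and -0.58 for Icam1. The inhibitor Nfkbia, the IκBα gene, differed by -0.06 at signals of 3.50 and 3.35, and Il6, Il1b and Tnf were not well above background on either array. The list had a median of -0.31 with TNF. Among interferon response genes, 18 of 26 were lower, against 51.1% of all genes, with a median of -0.18. Psmb8, a subunit of the immunoproteasome, had 0.165 and 0.0720 (-1.20, and -0.57 with normexp), and Isg15, a ubiquitin-like protein, 3.50 and 1.63 (-1.10) with -1.13 from its other probe.

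The promoters of Cxcl1 and Nfkbia are shown because both hold the κB motif that Rela dimers bind, while their differences without TNF were -0.78 for Cxcl1 (-0.52 with normexp) and -0.06 for Nfkbia. They are the 300 bases from 250 before to 50 after the start, from RefSeq on GRCm38.p6, at chr5:90890995-90891294 on the plus strand and chr12:55492598-55492897 on the minus strand. Capitals mark matches, on either strand, to the letters GGGA and TTCC with any 2 bases between them.
Cxcl1: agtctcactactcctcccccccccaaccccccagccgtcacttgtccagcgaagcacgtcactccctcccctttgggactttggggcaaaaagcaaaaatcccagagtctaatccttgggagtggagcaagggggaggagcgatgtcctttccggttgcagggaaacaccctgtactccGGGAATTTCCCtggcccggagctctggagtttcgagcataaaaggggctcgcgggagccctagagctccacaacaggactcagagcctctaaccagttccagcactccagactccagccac
Nfkbia: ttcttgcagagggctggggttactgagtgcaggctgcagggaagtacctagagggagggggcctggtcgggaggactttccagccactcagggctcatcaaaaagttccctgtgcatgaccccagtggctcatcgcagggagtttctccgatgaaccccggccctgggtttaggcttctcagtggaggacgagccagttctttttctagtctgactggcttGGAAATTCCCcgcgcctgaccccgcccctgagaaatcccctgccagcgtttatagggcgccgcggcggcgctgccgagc
In Cxcl1 there are 2 overlapping matches that cover 11 bases, from 71 to 61 bases before the start, and in Nfkbia there is 1 match, from 29 to 20 bases before it. The motif was present in 482 of 32851 promoters of this length (1.47%), and in those of 7 of 32 genes of the NF-κB list. Of these 7, Cxcl2 and Il6 were not well above background, Cxcl10, Csf1 and Nfkb2 had a spot in a patch, and Nfkbia and Cxcl1 had the values above. A match is a description of letters and says nothing of binding in these cells.

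Over all lists, the 10 genes outside patches with the lowest differences were Prrg4, Rflna, Sfrp2, Meox1, Matn1, Pcp4, Slc38a3, Ccl5, Thy1 and Sfrp5, from -2.20 to -1.52. Rflna (refilin A), which regulates filamin, had signals of 2.74 and 0.620 (-2.14), and Slc38a3, a glutamine transporter, 1.96 and 0.611 (-1.68). Both were also lower with TNF, with differences of -1.51 and -1.22. Meox1, a homeobox factor of mesoderm, had 0.283 and 0.0690 (-2.04), and -0.41 with TNF. Thy1 (CD90), a surface protein of stromal cells, had 2.57 and 0.854 (-1.59), and -0.28 with TNF. With normexp, Pcp4, Ccl5 and Sfrp5 were no longer past 2-fold, at -0.91, -0.63 and -0.88, and Meox1 was at -1.18. Averaging all probes of Prrg4 gave 0.20, so its probes disagree.

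The 10 genes with the highest differences outside patches were Car3, Clca3a1, Pou5f2, AI987944, Gsc, Foxq1, Glipr1, Spink5, Kcnq1ot1 and Rspo1, from 1.78 to 1.37. Car3 (carbonic anhydrase 3) had signals of 0.340 and 1.17 (1.78), and Gsc (goosecoid), a homeobox factor of head and limb mesenchyme, 0.407 and 1.22 (1.59). Both were higher with TNF too, by 2.02 and 1.58. With TNF, AI987944, Pou5f2 and Kcnq1ot1 differed by -0.13, 0.17 and -0.17. With normexp, Clca3a1, Pou5f2, Foxq1 and Rspo1 were no longer past 2-fold, at 0.85, 0.90, 0.82 and 0.71. The mean over the probes of Kcnq1ot1, the antisense RNA of the imprinted Kcnq1 domain, was -0.44.

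The pair of arrays with TNF shares no array with the pair without it, but whether both pairs came from the same mice or cultures is not given in the sources used here, so the former is not an independent repeat of the latter. Of 9331 genes that were measured well above background on each of the 4 arrays and had no spot in a patch, 95 were past 2-fold without TNF, and 84 of these had the same sign with TNF. Past 2-fold in the same direction in both pairs were 40 genes, 22 lower and 18 higher. At 1.5-fold, 349 of 420 had the same sign, against 61.7% of all 9331 genes, and 172 were past 1.5-fold in both. Across the 9331 genes, which are not independent replicates, Pearson's r between the differences was 0.52 and Spearman's rho 0.42. All 4 cartilage collagens and 10 of 12 cartilage proteoglycans and matrix proteins measured this way were lower in both pairs, against 2340 of all 9331 genes, and all 20 mitosis genes were higher in both, against 3418. Over all members of these lists measured without TNF, with or without a spot in a patch, the medians with TNF were -0.47, -0.38 and 0.34. That for DNA replication was 0.35.

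**Figure D5:**
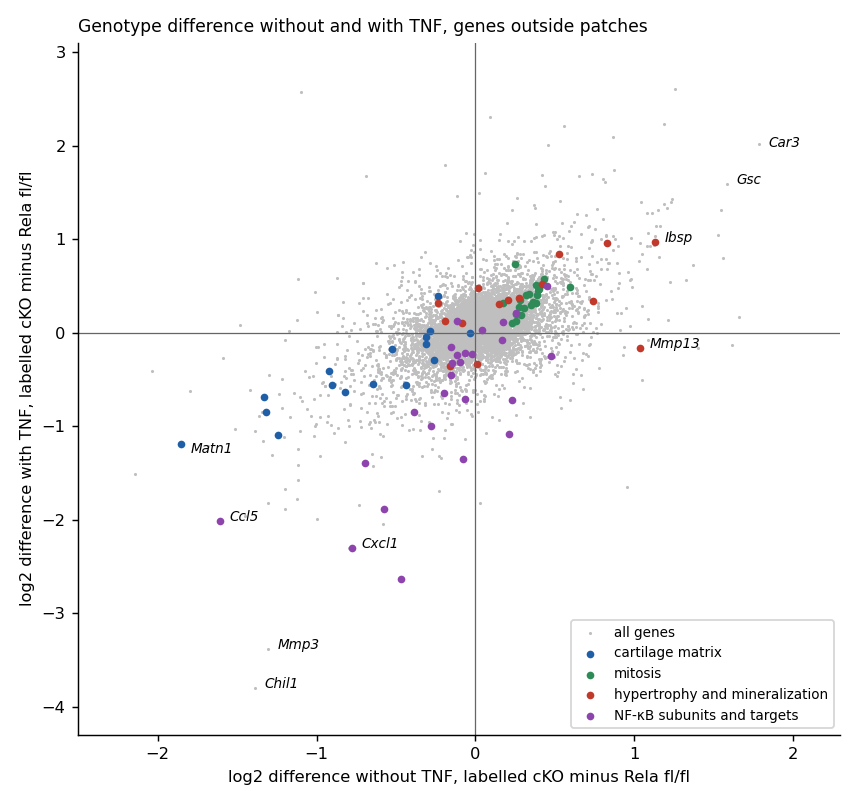
Log2 difference of each of 9331 genes without TNF (horizontal) and with TNF (vertical), labelled cKO minus Rela fl/fl, for genes measured on all 4 arrays with no spot in a patch. Grey points are all genes, and colours mark the lists given in the legend. The points run along the diagonal (Pearson's r 0.52). Cartilage genes lie at the lower left, mitosis genes at the upper right near the centre, and Mmp3 at -1.30 and -3.38.

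Markers of other cell types also differed between the 2 arrays. Among adipocyte markers, 4 of 11 matched genes were well above background only on the Rela fl/fl array, against 297 of all 19806 genes. Of these 297, 257 had a bound past 2-fold, 33 of them with no spot in a patch. None of the spots of the 4 adipocyte genes lay in a patch of an array without TNF. Cfd (adipsin) had a signal of 0.525 there and was at least 14.7-fold lower on the array labelled cKO, and Adipoq (adiponectin) had 0.241 and was at least 6.73-fold lower. Plin4, which coats lipid droplets, went the other way, at 2.44 and 5.24, 2.14-fold higher. The summed signal of the 5 markers measured on both arrays was 8.69 and 13.1. Of 20 leukocyte markers, 8 were measured on both arrays, with a median of -0.03 and summed signals of 40.8 and 45.4. Tyrobp, Ctss and Laptm5 were well above background only on the Rela fl/fl array, at least 3.06-, 2.82- and 1.93-fold lower on the other. Aif1 and Mrc1 were well above background only on the array labelled cKO, as were 1024 of all 19806 genes, with signals of 0.0406 and 0.0479 for Aif1, and Mrc1 was at least 1.18-fold higher there. Ptprc, C1qa and Cd53 were well above background on neither array. Among leukocyte and muscle markers, Lyz2, Adgre1 and Ttn were past 2-fold with a spot in a patch.

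All 14 fibroblast and synovium markers were measured, 10 were lower, against 51.1% of all genes, and the median was -0.31, with summed signals of 94.3 and 88.4. Thy1 was the 1 marker of that list past 2-fold outside patches, Dpt had a spot in a patch, and Ly6a (Sca-1) was higher, at 18.1 and 29.6 (0.71). For endothelial and skeletal muscle markers, 10 of 15 and 10 of 21 were not well above background on either array, Cdh5, Myod1 and Myog among them. The summed signals of the measured markers were 19.8 and 18.8 for endothelium, 4.07 and 5.33 for skeletal muscle, and 116 and 147 for smooth muscle and pericytes. Those for osteoblasts were 169 and 180, for tendon 109 and 107, for epithelium 6.87 and 7.24, for nerve 1.49 and 1.47, and for erythroid cells 0.574 and 0.563. The part of these cell types in the differences of the matrix and growth genes was not tested.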

How the data were processed

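RNA of cultured chondrocytes was read on 4 one-colour Agilent mouse arrays, 1 per genotype and treatment, on 1 slide read in 1 scan, so slide and scan do not separate the groups. The authors deposited an intensity for each of 59305 transcript spots, background-subtracted and detrended by Agilent Feature Extraction 10.10.1.1 per the file headers, and a table of scaled intensity values used here as an alternative.

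Spots with an outlier flag (138 to 225 an array) were left out. The log2 intensity was lowered by the array's 75th percentile (589 to 633 intensity units), spots of a probe were averaged, and a gene with several probes was read by its brightest one over the 4 arrays. Accessions gave a symbol for 27235 of 55681 probes, through RefSeq (GRCm38.p6). Genes of chromosomes X and Y were left out. Where a probe was not well above background on 1 of 2 arrays, its signal there was replaced by the dimmest signal passing that call if that was the higher, which gives a bound. Differences were computed in Python 3.11.15 with pandas 2.3.3, and normexp (offset 50) and quantile values with limma 3.58.1 in R 4.3.3. The calls and the patch rule were tested on simulated data with the same noise at all signals. The wider spread of signals under 1 was not simulated. The plan set normexp on mean signals, and median signals were used, as the files hold those.

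The 33 lists hold 839 symbols, of which 806 were matched and 656 measured on both arrays. Per function list the 4 largest differences outside patches are named, with Col2a1, Acan, Sox9, Col1a1, Col10a1, Runx2, Igf2, Ccnd1 and Cdkn1c, the 10 highest and 10 lowest of all genes, and markers past 2-fold, and further genes of the lists were named after their values were seen. A few genes are not reported here. The genes, lists and patch rule were chosen with earlier results of these data known. No p-value was computed, as each condition has 1 array.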

Additional observations from a re-analysis of the deposited data

Results flagged for a closer look

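Thbs4 and Prrg4 are listed because the array labelled cKO differed from the Rela fl/fl array by 1.5-fold or more in opposite directions without and with TNF. Whether the differences themselves differ was not tested, since each condition has 1 array. Thbs4 (thrombospondin-4), a matrix protein of tendon and cartilage, differed by -0.76 without TNF and 0.86 with TNF, where it had a spot in a patch. Prrg4 differed by -2.20 without TNF and 0.71 with TNF, where it had a spot in a patch.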

How the results depend on the processing

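No paired analysis was possible because each condition has 1 array. As reported, 126 genes were higher and 213 lower by 2-fold or more. These counts were 60 and 119 with normexp background correction, 301 and 470 when a gene needed to be well above background on at least 1 array, 834 and 870 with no filter on dim probes, 42 and 69 with spots in patches left out, and 53 and 109 for signals over 4 times the lowest well above background. At 1.5-fold they were 355 and 511, and at 3-fold 45 and 101. Higher genes made up 37.2% of those past 2-fold as reported and 48.9% with no filter on dim probes. With no percentile subtracted, quantile normalization, the authors' scaled values, the mean over probes, the brightest probe or the neighbourhood median subtracted, both counts stayed within 1.5 times those reported. The median of the cartilage collagens was -0.41 with the neighbourhood median subtracted, where Col9a1 and Col2a1 changed sign. Over the alternatives, the medians ranged from -0.64 to -0.51 for cartilage proteoglycans and matrix proteins, 0.09 to 0.24 for hypertrophy and mineralization, and 0.31 to 0.38 for mitosis. Of 1164 values of 106 named genes under alternatives, 1093 stayed within 1 technical SD (0.14) of those reported, 67 moved further with the same sign, and 4 reversed. Alternatives that change only the filter leave a gene's value as it is. Those with no percentile subtracted or the authors' scaling shift all genes by the same small amount. The count that stayed is thus partly fixed in advance and is no measure of stability. Many of the 67 are normexp values of dim genes. The reversed values were 0.20 for Prrg4 and -0.44 for Kcnq1ot1 with the mean over probes, and -1.09 for Adgre1 and -0.14 for Ttn with spots in patches left out. Differences of genes with signals under 1 are the least precise, and the spread between cultures is unknown.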

Other observations

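Several genes known from skin and other barrier epithelia stood among the 18 genes that were higher by 2-fold or more in both pairs of arrays. They were picked after their values were seen and form no list with a test. Lce3b and Lce3c, late cornified envelope proteins, were higher on the array labelled cKO by 1.19 and 1.26 without TNF and by 2.24 and 2.61 with TNF. Pkp1, a desmosomal plakophilin, differed by 1.19 and 1.37, and the kallikrein Klk10 by 1.24 and 1.43. The list of epithelial markers held 6 measured genes of 10, with a median of 0.14 without TNF, and Krt19 differed by 0.72 and 0.91.

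Of the 22 genes lower by 2-fold or more in both pairs, 5 are given here, also picked after their values were seen. Chil1, a chitinase-like protein of chondrocytes and macrophages, differed by -1.38 without TNF and -3.80 with TNF, and the protease inhibitor Slpi by -1.31 and -1.82. The complement gene C4b differed by -1.02 and -1.11. The iron exporter Slc40a1 differed by -1.20 and -1.12, and Scara5, a ferritin receptor, by -1.20 and -1.67.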
